A study of Mus musculus with 2 samples.

Results

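Insulin-like growth factor (IGF) signalling was followed in single cells of the mouse submandibular gland through 8 genes: the binding proteins Igfbp2, Igfbp3, Igfbp4, Igfbp5, Igfbp6 and Igfbp7, the ligand Igf1 and the receptor Igf1r. They are 8 of the 27998 genes in the deposited count tables and were picked by family name, with results of these data already in view. Their values are therefore a description, and no test is attached to any of them. Whole glands of 12-week-old mice were dissociated and run as 1 p63 wild-type and 1 p63 KO library, with p63 (Trp63) known as a transcription factor of basal epithelium. The labels do not say how or in which cells p63 was deleted, or whether glands were pooled. One label calls the material epithelial progenitor cells, yet both libraries also held cells with endothelial, macrophage, lymphoid and haemoglobin markers.

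IGF1 and IGF2 act through the receptor tyrosine kinase encoded by Igf1r, which signals through insulin receptor substrates, PI3K and AKT and so holds FoxO transcription factors out of the nucleus. Secreted IGF binding proteins hold the ligands in the extracellular space, prolong their life, and either withhold them from the receptor or deliver them to it, and proteases that cut the binding proteins free the ligand. In epithelial glands these proteins are made by stroma, vessels, myoepithelial cells and ducts, so their cell of origin is as informative as their amount.

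The wild-type library held 8811082 UMIs (tags that mark single captured molecules) in 1970 barcodes and the KO library 11828669 in 4726. A barcode counted as a cell if it showed 200 or more genes and a mitochondrial share below 20%. That was so for 1663 wild-type barcodes (84.4%) and 2423 KO barcodes (51.3%), with medians of 3406 and 2088 UMIs, and 7 kept barcodes were shared between the libraries. Cells were put into classes by marker genes, none of them one of the 8. With 1 library per genotype there is no replicate, and every interval given here covers counting error only. RNA of other cells was carried into both libraries, unequally by gene: in lymphoid-gated cells Krt14, a basal keratin, stood at 183 CPM (UMIs per 1000000 of the class and library) in wild-type cells and at 0 in KO cells, and the tubule product Klk1 at 3929 and 3430 CPM. Basal duct cells, a source of Krt14, were also fewer in the KO library (307 and 86). The 60 KO lymphoid cells held 0 UMIs of the 8 genes. The 36 wild-type ones held 5 UMIs of Igfbp5, 3 of Igfbp4, 3 of Igf1r and 1 of Igfbp7, and none remained after each cell was thinned to 1000 UMIs. In class totals, fewer molecules per cell and fewer cells that make a gene cannot be told apart, so shares of cells are given beside the levels.

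**Figure D1:**
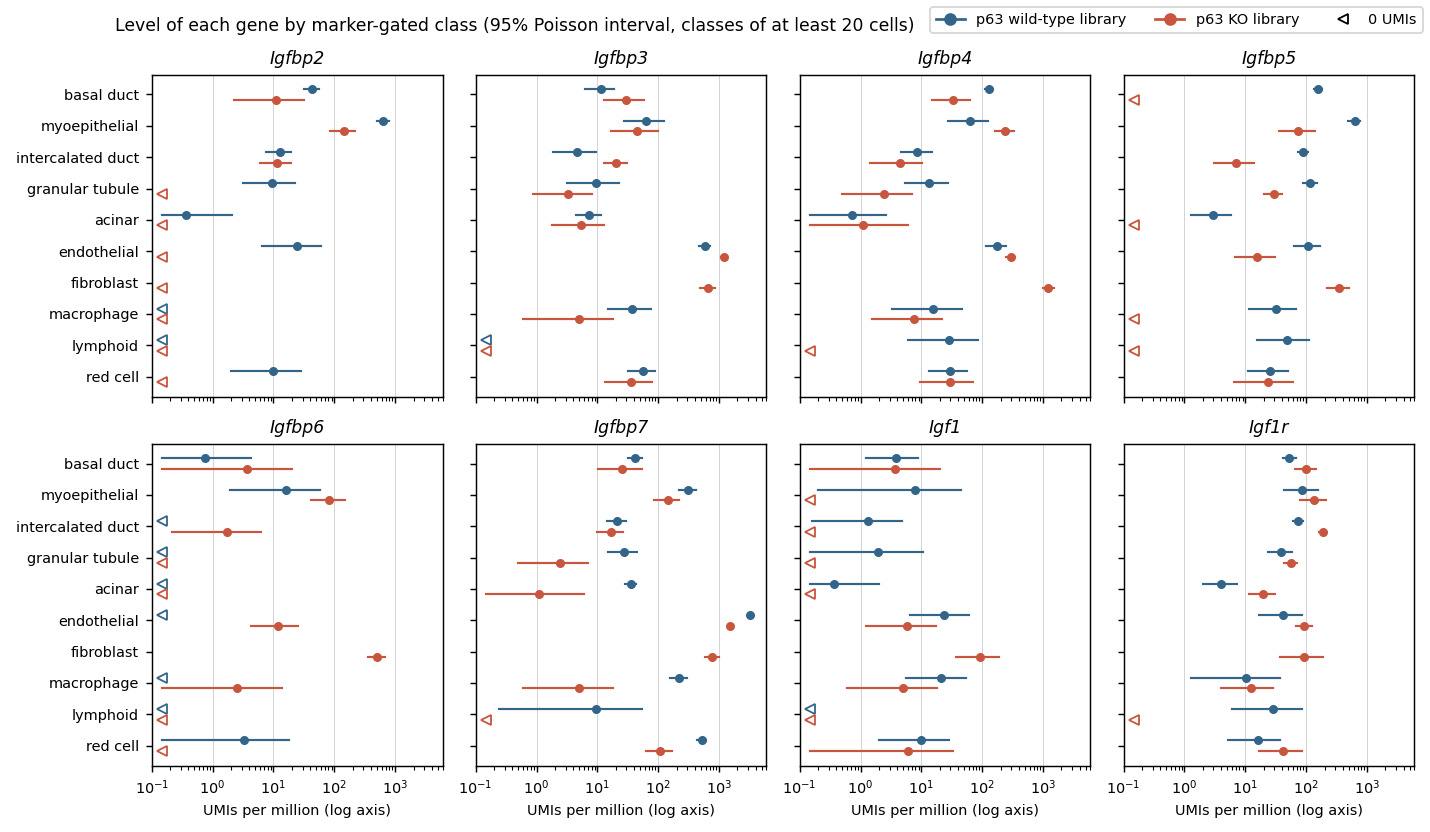
Level of each of the 8 genes in CPM (log axis) by marker-gated class, with blue for the wild-type and red for the KO library; points are class totals, lines are 95% Poisson intervals cut at the left edge, and open triangles mark 0 UMIs. Igfbp5 in basal duct cells lies at 157 (wild-type) and 0 (KO), while Igfbp3 in endothelial cells lies at 575 and 1185.

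In place of a test, a size rule was applied to each gene and class: 50 or more UMIs over the pair of libraries, and an exact 95% interval of the KO over wild-type ratio of CPM wholly beyond 2-fold. Over 7 classes of 40 or more cells per library, 16 of the 56 pairs of gene and class had 50 UMIs, of which 5 passed as lower in the KO library, 1 passed as higher and 10 did not pass. The lower pairs were Igfbp5 in basal duct, intercalated duct and granular convoluted tubule cells and Igfbp7 in acinar and red cells, and the higher pair was Igf1r in intercalated duct cells. Between 2.86% and 11.8% of all genes with 50 UMIs passed in these classes. Myoepithelial and lymphoid cells, with 32 and 36 wild-type cells, were added after class sizes had been seen, and 2 myoepithelial pairs passed as lower, Igfbp2 and Igfbp5. No lymphoid pair had 50 UMIs, and 5.84% of all genes passed there, 1.12% as higher and 4.72% as lower.

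**Figure D2:**
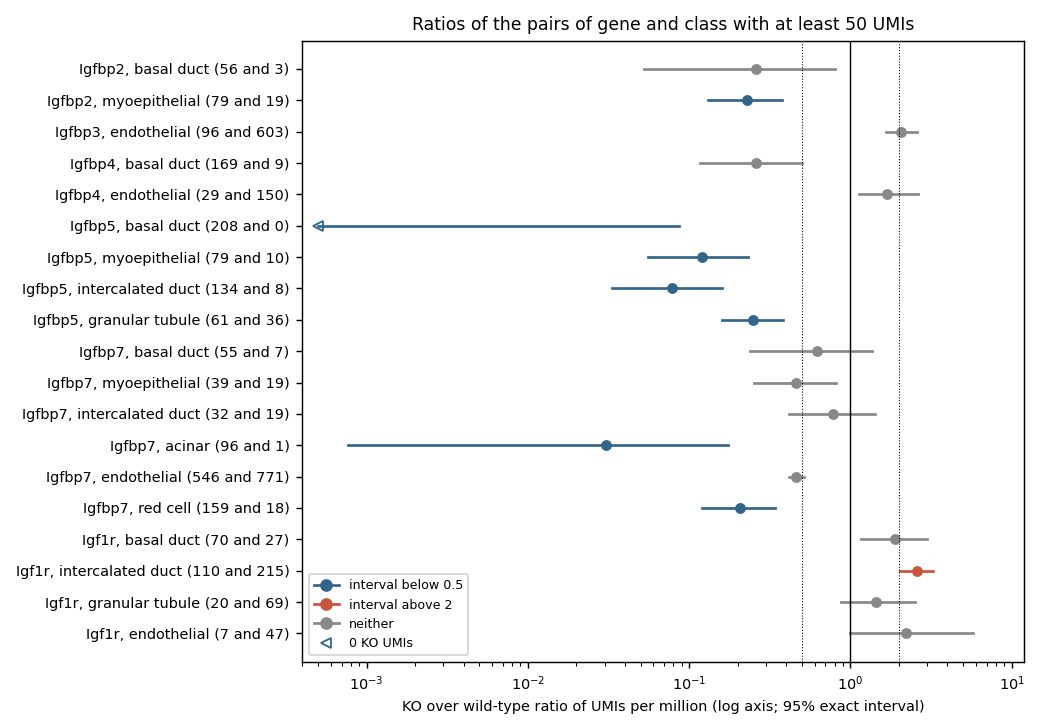
KO over wild-type ratio of CPM (log axis) for each pair of gene and class with at least 50 UMIs, with the exact 95% interval, the wild-type and KO UMI counts in brackets, a solid line at 1 and dotted lines at the 2-fold limits; an open triangle marks 0 KO UMIs. Igfbp5 lies below the lower limit in all 4 of its classes, and Igf1r in intercalated duct cells alone lies above the upper limit.

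Igfbp5, a secreted protein that binds IGFs and extracellular matrix, passed as lower in more classes than any other of the 8 genes. The gene (ENSMUSG00000026185) is protein-coding and lies at GRCm38 chromosome 1, 72857932 to 72874884, minus strand. Its neighbour Igfbp2 (ENSMUSG00000039323; chromosome 1, 72824503 to 72852474, plus strand) ends 5457 bases away, tail to tail. The RefSeq (GRCm38.p6) promoter windows of both, 250 bases before to 50 after the annotated start, are shown because the pair was low together in KO myoepithelial cells. For Igfbp2 the more upstream of its RefSeq starts was taken. Capitals mark TATTTAA in Igfbp5 (chr1:72874816-72875115, minus) and GGGCGG, the core of a GC box, in Igfbp2 (chr1:72824230-72824529, plus), read 5′ to 3′.
Igfbp5: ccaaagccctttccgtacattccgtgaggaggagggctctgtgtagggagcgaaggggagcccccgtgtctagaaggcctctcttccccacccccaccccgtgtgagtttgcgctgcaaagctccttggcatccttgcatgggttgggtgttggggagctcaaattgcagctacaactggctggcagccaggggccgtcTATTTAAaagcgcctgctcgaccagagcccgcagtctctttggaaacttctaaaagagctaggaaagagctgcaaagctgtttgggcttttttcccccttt
Igfbp2: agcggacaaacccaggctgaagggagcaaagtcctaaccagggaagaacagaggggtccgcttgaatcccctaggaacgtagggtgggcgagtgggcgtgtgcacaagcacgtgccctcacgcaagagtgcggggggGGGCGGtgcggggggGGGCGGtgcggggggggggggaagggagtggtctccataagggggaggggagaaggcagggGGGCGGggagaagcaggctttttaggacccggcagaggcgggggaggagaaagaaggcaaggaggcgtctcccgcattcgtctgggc
The Igfbp5 window held 1 TATTTAA, 51 bases before the start, which 4.51% of 32851 promoter windows hold on either strand. The Igfbp2 window held 3 GGGCGG (35.7% of windows), whereas the window of its other RefSeq start (chr1:72825137-72825436) held none. Neither window shown held TATAAA (13.6%). The motifs do not share letters in these windows, and a match or its lack is a property of these letters only.

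Basal duct cells are the Krt5, Krt14 and Krt15 layer of the ducts in which p63 is expressed. Igfbp5 had 208 UMIs in 307 wild-type basal duct cells (157 CPM) and 0 in 86 KO cells. With the floor of 3 counts put in for the KO class it was 14.2-fold lower, and the 95% interval put the fold above 11.5. It was detected in 30% of wild-type cells and in 0 of 86 KO cells, where the floor of 3 counts allows up to 3.49% of cells with a UMI, which does not limit the share that express the gene. After thinning, 11.4% of wild-type cells still had a UMI. So the wild-type basal layer held Igfbp5 in a sizeable minority of cells and no KO molecule was seen. Without the filter on barcodes the counts were 212 and 2, a KO over wild-type ratio of 0.0339 (0.00408 to 0.124), and the pair still passed. In this class 1 of the 5 genes with 50 UMIs passed the size rule, as lower, against 3.45% of all genes (1.76% as lower).

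The basal duct classes of the libraries differed in their markers. In KO basal duct cells Krt15 had 0 UMIs (626 in the wild-type), Krt5 5 (459) and Trp63 4 (75), while Krt17, another basal keratin, stood at 1990 (wild-type) and 2008 CPM (KO). Clustered over both libraries, 276 of the 307 wild-type cells fell in 1 basal cluster and 72 of the 86 KO cells in another, unnamed cluster of 5 wild-type and 263 KO cells. Only 4 of these KO cells lay in basal clusters, and in those clusters Igfbp5 had 343 wild-type UMIs and 0 in 5 KO cells, which is too few KO cells to pass the size rule. A lost molecule within the same cells and a different set of cells cannot be told apart.

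Within the wild-type basal class Igfbp5 was unevenly spread. It was detected in 41.0% of cells with a Krt15 UMI and 14.7% of the rest, and after thinning in 15.1% and 9.95%. Krt5 gave 33.0% and 23.5% before and 9.57% and 12.2% after thinning, an order that turned. Cells with a Trp63 UMI carried Igfbp5 in 31.1% of cases and the rest in 29.7%, and after thinning in 5.88% and 11.7%. Only the split by Krt15 kept its order in both counts, and it was small once depth was fixed.

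Myoepithelial cells, contractile Acta2-positive cells that squeeze the acini, had the highest Igfbp5 and Igfbp2 CPM of the wild-type classes with at least 20 cells. Igfbp5 had 79 UMIs in 32 wild-type cells (624 CPM, 71.9% of cells) and 10 in 57 KO cells (74.7 CPM, 17.5%), 8.36-fold lower (4.31 to 18.1). Igfbp2, a binding protein with preference for IGF2, also had 79 wild-type UMIs (624 CPM, 68.8% of cells) and 19 KO UMIs (142 CPM, 22.8%), 4.40-fold lower (2.64 to 7.69). Thinned shares were 43.8% and 10.5% for Igfbp5 and 50% and 5.26% for Igfbp2. With clusters made within each library Igfbp2 had 100 and 44 UMIs, 2.62-fold lower, and no longer passed. Of the 10 markers of the class, 4 were higher in CPM, 5 lower and 1 at 0 in both libraries. Acta2 stood at 5879 (wild-type) and 6954 CPM (KO), Tagln at 1659 and 1509 and Lmod1 at 205 and 486, whereas Cnn1 stood at 940 and 396, Mylk at 1328 and 627 and Actg2 at 237 and 7.47. Within the class 29 of 32 and 49 of 57 cells fell in the same joint cluster, and the part of the lower markers in the values of Igfbp2 and Igfbp5 was not tested. These 2 were lower among 3 genes with 50 UMIs, against 7.36% of all genes that passed in either direction (2.4% as lower).

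Trp63 itself, counted at the 3' end, had 10 UMIs in each library's myoepithelial class (79.0 and 74.7 CPM). The labels do not say which exons were removed, so this count does not tell whether the transcripts were intact. The basal keratin Krt5 had 48 and 1 UMIs there and Krt14 292 and 59. Wild-type Igfbp2 and Igfbp5 shared cells: 18 of 32 cells held both, against 22 with Igfbp2 and 23 with Igfbp5, and after thinning 10 held both. Of the 57 KO cells, 4 held both.

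Some genes of vessel-wall cells were also higher in the KO myoepithelial class, and others were not. Rgs5, a pericyte marker, had 5 wild-type and 25 KO UMIs, and Flt1, an endothelial marker, 6 and 21. Pecam1 (6 and 12 UMIs, ratio 1.89, 0.657 to 6.14) and Plvap (6 and 10, 1.58, 0.519 to 5.27) had intervals that held 1. Igfbp7 was lower (39 and 19 UMIs, 2.17-fold, 1.22 to 3.98). Igfbp4 had 8 and 32 UMIs, and 1 cell gave 34.4% of its KO count. With clusters made within each library the direction of Igfbp4 turned, with 31 and 2 UMIs (ratio 0.0560, 0.00650 to 0.220). Among cells with no UMI of a stromal, pericyte or endothelial marker, Igfbp4 had 4 and 1 UMIs. Igfbp5 in these cells had 51 and 6 UMIs and still passed (9.63-fold lower), whereas Igfbp2 had 36 and 13 and did not (3.14-fold lower).

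Intercalated duct cells, the small Kit-positive ducts that drain the acini, held 134 wild-type UMIs of Igfbp5 in 296 cells (89.0 CPM) and 8 in 231 KO cells (7.0 CPM). The KO level was 12.7-fold lower (6.27 to 30.1), and the share of cells fell from 18.2% to 3.03% (thinned, 5.41% and 0.866%). Of the 3 genes with 50 UMIs here, 1 passed as lower and 1 as higher, against 3.64% of all genes in either direction (2.05% as lower, 1.59% as higher). The wild-type level lay within the interval of the wild-type lymphoid cells (48.2 CPM, 15.6 to 112), though the share of cells there was 5.56%. Basal markers were lower in the same class, Krt5 with 42 and 1 UMIs, Krt15 with 33 and 1 and Trp63 with 20 and 1, while the myoepithelial marker Acta2 stood at 29.9 and 83.1 CPM. The fold was 7.87 without the deepest 5% of cells and 25.6 with 1 more marker needed (103 and 2 UMIs), and the pair passed in both. A single cell gave 11.9% of the wild-type UMIs, and 27.8% of the cells with Igfbp5 held a myoepithelial marker UMI against 7.44% of the rest. The part of carried-over RNA in this difference was not tested. Most wild-type cells of the class (206) and most KO cells (154) fell in different joint clusters, both of them named intercalated duct. All 5 markers of the class were lower in CPM in KO cells. Elf5 stood at 175 and 171, Kit at 208 and 143, Nkd2 at 239 and 66.5 and Gstt1 at 141 and 38.5. Needing 1 more marker left 223 wild-type and 94 KO cells. The part of the lower markers in the values of this class was not tested.

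Granular convoluted tubule cells, which secrete kallikreins and EGF in mice, had 61 Igfbp5 UMIs in 179 wild-type cells (117 CPM, 25.1% of cells) and 36 in 467 KO cells (29.2 CPM, 7.28%). The difference was 4.03-fold (2.62 to 6.26), and thinned shares were 10.6% and 1.93%. Basal keratins were lower with it, Krt14 with 43 and 0 UMIs, Krt17 with 34 and 0 and Krt5 with 7 and 0, and their part in the difference was not tested. It passed as 1 of 2 genes with 50 UMIs, against 2.86% of all genes (1.4% as lower). With stricter barcodes (at least 500 genes and under 10% mitochondrial) only 10 and 6 UMIs were left, 3.11-fold apart, and the pair no longer had 50. Here too the classes lay mostly in different joint clusters of the same name, 136 of the wild-type and 393 of the KO cells.

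**Figure D3:**
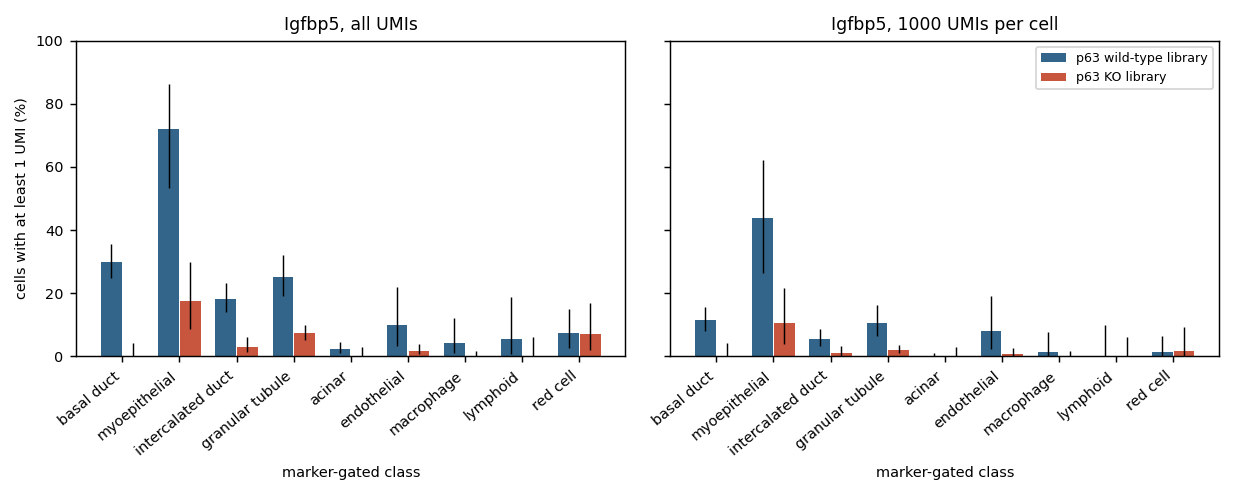
Share of cells with at least 1 Igfbp5 UMI (%) by marker-gated class in the wild-type (blue) and KO (red) library, from all UMIs (left) and after thinning each cell to 1000 UMIs (right); lines are exact 95% binomial intervals. The wild-type bar is the higher in basal duct, myoepithelial, intercalated duct and granular tubule cells in both panels, for example 71.9% against 17.5% and 43.8% against 10.5% in myoepithelial cells.

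Elsewhere Igfbp5 was sparse, and no other compared class had 50 UMIs of it. Wild-type endothelial cells had 18 UMIs, of which 9 lay in 1 cell, and KO endothelial cells had 8. Red cells had 8 and 4 UMIs at 25.9 and 23.8 CPM. The top KO class was fibroblasts, with 26 UMIs in 44 cells (340 CPM), of which 46.2% lay in 1 cell, and then ionocytes, the proton-pump cells of the duct, with 23 UMIs spread over 22 of 131 cells (74.8 CPM, 16.8%, thinned 8.40%). The wild-type library had only 6 fibroblasts and 11 ionocyte-gated cells, the latter with 1 of 7 markers raised, so neither class was compared. These fibroblasts held 8 Igfbp5 UMIs (470 CPM) and these ionocyte-gated cells 5 (166 CPM).

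Among wild-type classes of at least 20 cells the order of Igfbp5 levels was myoepithelial first, with basal duct, granular tubule, endothelial and intercalated duct cells next and each overlapping its neighbour's interval. Igfbp2 in the wild-type led in myoepithelial cells, and basal duct cells (56 UMIs, 42.4 CPM) overlapped endothelial cells (4 UMIs, 24.0 CPM). In KO basal duct cells Igfbp2 had 3 UMIs (11.1 CPM), 3.83-fold lower with an interval of 1.25 to 19.1, which did not pass. Outside myoepithelial, basal and intercalated duct cells, KO Igfbp2 was at 0 in all 8 other classes with at least 20 cells that were ordered.

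Igfbp4 (ENSMUSG00000017493; chromosome 11, 99041244 to 99054392, plus strand) is a binding protein that restrains IGF action until the protease PAPP-A cuts it. Wild-type basal duct cells held 169 UMIs (128 CPM, 37.5% of cells, thinned 9.77%), and KO cells 9 (33.2 CPM, 8.14%, thinned 3.49%). The difference, 3.86-fold (1.98 to 8.58), lay just outside the size rule. It passed as lower with TMM scaling (4.52-fold), with secretory and other dominant genes left out of the total (4.39-fold), without the filter on barcodes (5.35-fold) and without the deepest 5% of cells (7.14-fold, 167 and 4 UMIs). It did not pass after thinning (3.08-fold), with 1 more marker needed (3.13-fold), with stricter barcodes (3.39-fold), with separate clusters (3.64-fold) or with joint clusters, where the KO class held 1 UMI (ratio 0.817, 0.0206 to 4.60). In the wild-type basal class Igfbp4 was no commoner beside Igfbp5: 35.9% of cells with Igfbp5 and 38.1% of the rest held it.

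The KO library placed Igfbp4 foremost in fibroblasts, with 93 UMIs in 44 cells (1217 CPM), ahead of adipocytes (52 UMIs in 19 cells, 464 CPM) and endothelial cells (150 UMIs, 295 CPM). The 6 wild-type fibroblasts held 21 UMIs (1233 CPM), of which 47.6% lay in 1 cell. In endothelial cells Igfbp4 had 29 wild-type UMIs (174 CPM, 24.0% of 50 cells) and 150 KO UMIs (12.7% of 291 cells), a ratio of 1.70 (1.13 to 2.62). Level and share of cells thus went opposite ways, so no order is read from them. KO endothelial cells with Igfbp7 held Igfbp4 less often, 10.5% against 25% of those without, and 6.22% against 18.3% after thinning.

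Igfbp3 (ENSMUSG00000020427, chromosome 11, 7206086 to 7213923, minus strand) encodes the main carrier of IGFs in plasma. In both libraries endothelial cells held more of its UMIs than any other class. Endothelial cells gave 48.0% of all wild-type and 68.4% of all KO UMIs of the gene. They held 96 UMIs in 50 wild-type cells (575 CPM, 50% of cells) and 603 in 291 KO cells (1185 CPM, 65.3%). Of the wild-type UMIs 25% lay in 1 cell and 51.0% in 5 cells, and of the KO UMIs 2.32% and 10.1%. The ratio was 2.06 (1.66 to 2.58), which did not pass, and thinned shares were 40% and 55.3%. It was 1.32 (1.08 to 1.63) with joint clusters and 1.46 after thinning. Of 14 endothelial markers 12 were also higher in CPM in the KO class, among them Plvap (1001 and 2229) and Flt1 (713 and 1637), while the epithelial genes Epcam (414 and 116), Krt18 (1708 and 662) and Krt14 (605 and 9.83) were lower. The part of this mixture in the endothelial values was not tested. None of the 4 genes with 50 UMIs in endothelial cells passed, against 5.81% of all genes (2.21% as lower). KO fibroblasts came next with 50 UMIs (654 CPM), and the other KO classes of at least 20 cells lay under 50 CPM.

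Igfbp7 (ENSMUSG00000036256; chromosome 5, 77349240 to 77408041, minus strand) encodes a secreted protein of vessel walls that binds IGFs weakly. Among classes of at least 20 cells it was highest in endothelial cells of both libraries, with 546 wild-type UMIs (3272 CPM, 92.0% of cells) and 771 KO UMIs (1516 CPM, 84.9%). The KO level was 2.16-fold lower (1.93 to 2.41), just outside the size rule, and thinned shares were 78.0% and 71.8%. In the joint clusters it was 3.05-fold lower and passed. Of the binding-protein UMIs in endothelial cells, Igfbp7 made up 78.8% (wild-type) and 50.1% (KO), and Igfbp3 13.9% and 39.2%. KO cells with Igfbp7 held Igfbp3 in 68.4% of cases and those without in 47.7% (thinned 57.4% and 50%).

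In the main setting both Igfbp7 differences that passed lay in classes not gated as endothelial. Red cells held 159 wild-type UMIs (515 CPM) and 18 KO UMIs (107 CPM), 4.81-fold lower (2.95 to 8.33) and the 1 gene with 50 UMIs, against 5.4% of all genes (3.11% as lower). Of 21 wild-type red cells with Igfbp7, 16 also held an endothelial marker UMI (76.2%), against 4 of 62 without it (6.45%), and among red cells with no stromal or endothelial marker the counts were 4 and 0. With clusters made within each library the direction turned, with 1 and 16 UMIs. In the KO library all 11 red cells with Igfbp7 held an endothelial marker UMI, against 7 of 46 without it. The part of endothelial RNA in the red-cell difference was not tested. Acinar cells, which make the saliva proteins, held 96 wild-type UMIs (35.3 CPM) and 1 KO UMI (1.09 CPM), 32.5-fold lower with an interval of 5.70 to 1298. This was the 1 acinar gene with 50 UMIs, against 6.87% of all genes (0.955% as lower). Wild-type acinar cells with Igfbp7 had a median of 8521 UMIs against 3898 in the rest, their share fell from 17% to 1.44% on thinning, and without the deepest 5% of cells 40 and 0 UMIs remained, fewer than the 50 the rule needs, with a ratio of 0 to 0.372. Among acinar cells with no stromal or endothelial marker UMI the counts were 39 and 0. No macrophage pair had 50 UMIs (11.8% of all genes passed there, 7.2% as higher and 4.64% as lower), and 42 wild-type against 2 KO Igfbp7 UMIs came from 12 and 2 cells, with 31.0% of the former in 1 cell.

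**Figure D4:**
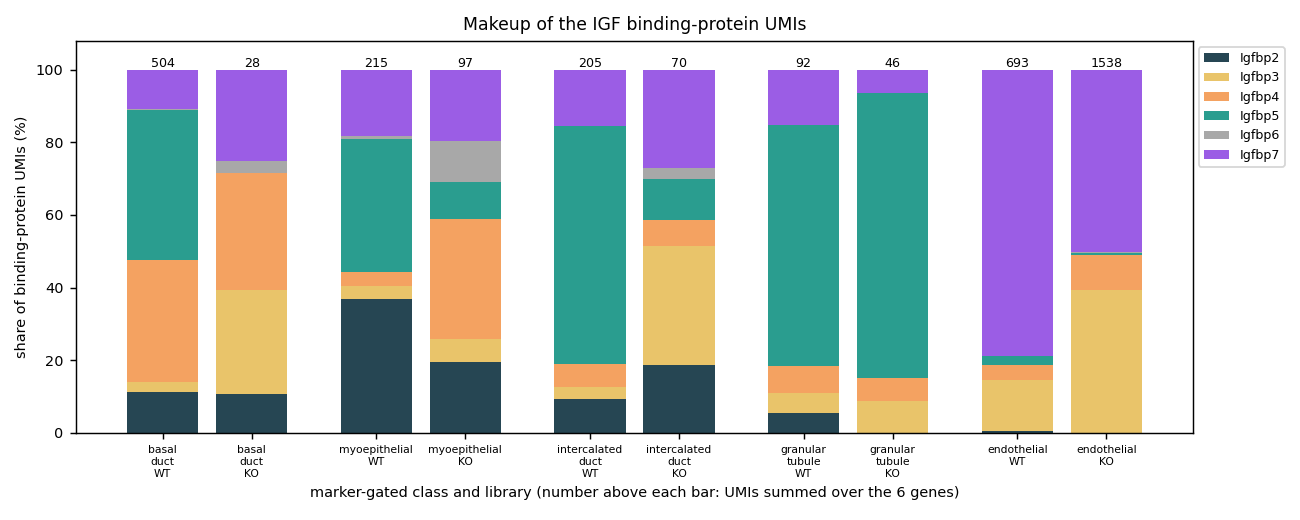
Share of the UMIs of the 6 binding-protein genes (%) taken by each gene in 5 marker-gated classes of the wild-type (WT) and KO library, with the summed UMIs above each bar. In basal duct cells Igfbp5 takes 41.3% of the wild-type and 0 of the KO bar, and Igfbp3 13.9% and 39.2% in endothelial cells.

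Igfbp6 (ENSMUSG00000023046, chromosome 15, 102144362 to 102149511, plus strand), a binding protein selective for IGF2, had its highest CPM in fibroblasts. KO fibroblasts held 38 of the 93 KO UMIs (497 CPM, 52.3% of cells), followed, among classes of at least 20 cells, by myoepithelial cells with 11 (82.2 CPM). A further 33 KO UMIs lay in 22 ungated cells. In the wild-type library 23 of 30 UMIs lay in 6 fibroblasts, and 1 of these cells held 69.6% of the 23. No compared class had 50 UMIs of it.

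Summed over the 6 binding proteins, the class gated as basal duct held 381 CPM in the wild-type and 103 CPM in the KO library, from 504 and 28 UMIs. At least 1 binding protein was seen in 67.8% (wild-type) and 22.1% (KO) of basal cells, and in 25.7% and 11.6% after thinning. In myoepithelial cells the sums were 1699 and 725 CPM, and in endothelial cells 4153 and 3023 CPM. Over all kept cells the sums were 333 and 388 CPM (2645 and 2665 UMIs), and Igfbp5 went from 27.0% to 5.85% of them and Igfbp3 from 7.56% to 33.1%. Those whole-library shares also reflect cell numbers, with 50 wild-type and 291 KO endothelial cells.

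Igf1 (ENSMUSG00000020053; chromosome 10, 87858265 to 87937042, plus strand), the ligand, was rare, with 36 wild-type and 38 KO UMIs in all kept cells. In the KO library its leading sources were adipocytes (21 UMIs in 9 of 19 cells, 187 CPM) and fibroblasts (7 UMIs, 91.6 CPM). The 6 wild-type fibroblasts held 9 UMIs, and no wild-type cell was gated as an adipocyte. The epithelial classes held 0 to 5 UMIs each. Igf2 had 3 and 6 UMIs in all, and Igfbp1, Ins1 and Ins2 none.

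Igf1r (ENSMUSG00000005533; chromosome 7, 67952827 to 68233668, plus strand), the receptor, was the 1 gene that passed as higher. Intercalated duct cells had 110 wild-type UMIs (73.1 CPM, 28.7% of cells) and 215 KO UMIs (188 CPM, 49.4%), 2.57-fold higher (2.04 to 3.27), just inside the size rule. Thinned shares were 8.45% and 15.6%. The direction was the same in basal duct cells (53.0 and 99.5 CPM, ratio 1.88, 1.16 to 2.97), granular tubule cells (1.45, 0.872 to 2.52) and endothelial cells (2.20, 0.989 to 5.77), none of which passed. Acinar cells had the largest ratio (11 and 18 UMIs, 4.83, 2.16 to 11.3) and passed only with a minimum of 20 UMIs. Under 50 UMIs, myoepithelial (1.55), red (2.57) and macrophage cells (1.19) also had a higher KO level, and lymphoid cells (3 and 0 UMIs) did not. After thinning the direction turned in basal duct (18 and 4 UMIs, ratio 0.793) and granular tubule cells (10 and 25 UMIs, 0.958). Without the deepest 5% of cells the intercalated ratio was 2.16, and after thinning 2.1, neither of which passed. With a gate margin of 1 log2 unit it was 2.51 and without cells that held stromal markers 2.63, with intervals from 1.98 and 1.96 upwards.

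Receptor RNA was seen in most classes, at unequal levels. In the KO library the interval of intercalated duct cells (188 CPM, 164 to 215) overlapped that of myoepithelial cells (134 CPM) but lay above those of basal duct (65.6 to 145) and endothelial cells (67.9 to 123), and acinar cells stood at 19.5 CPM. In the wild-type library myoepithelial (86.9 CPM), intercalated duct and basal duct cells (53.0 CPM) each overlapped their neighbour in the order, and acinar cells were lowest at 4.05 CPM. Intercalated duct cells gave 39.7% of the wild-type and 36.9% of the KO UMIs of the kept cells. Intercalated cells with a Kit UMI held Igf1r more often than the rest, 33.7% against 21.2% (wild-type) and 59.0% against 39.5% (KO), and 11.8% against 7.76%, then 18.4% against 15%, after thinning. The related insulin receptor Insr had 62 and 68 UMIs there (41.2 and 59.5 CPM, ratio 1.44), and Igf2r, which clears IGF2, 60 and 33 (39.9 and 28.9 CPM).

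Downstream genes were read from lists set by function, with the medians of lists and of all genes taken over genes of at least 10 UMIs. None of the measured PI3K, AKT and mTOR genes passed the size rule in any class, with up to 16 of 22 at 50 UMIs (intercalated duct, median log2 ratio 0.19 against -0.03 for all genes). The list of FoxO factors and targets, which PI3K and AKT signalling holds down, had medians of 0.54 in basal duct (all genes 0.05), 1.15 in myoepithelial (-0.06), 0.62 in intercalated duct (-0.03), 0.48 in granular tubule (0.02), 0.82 in acinar (0.16) and 0.66 in endothelial cells (-0.00). Of its genes with 50 UMIs, 2 of 10, 2 of 4, 2 of 13, 2 of 10, 4 of 8 and 2 of 6 passed as higher in these classes. The shares of all genes that passed as higher were 1.7%, 4.95%, 1.59%, 1.46%, 5.92% and 3.61%. In macrophages the median was 0.02 (0.09), with Klf2 of 2 genes lower (135 and 81 UMIs, 3.52-fold). Red cells and lymphoid cells had no gene of the list that passed as higher. Among list genes with 10 UMIs, the middle log2 ratio was 0.04 in red cells (Txnip) and 0.05 in lymphoid cells (Sesn3). Klf2 was the lowest in both, at -1.22 and -1.62. The all-gene medians of these classes at that minimum are not given.

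The FoxO-list genes that passed as higher were few and recurrent. Txnip, an inhibitor of glucose uptake, had 75 and 103 UMIs in basal duct cells (6.69-fold), 366 and 555 in acinar cells (4.47-fold), 53 and 190 in myoepithelial cells (3.39-fold) and 60 and 658 in endothelial cells (3.60-fold). Pik3ip1, an inhibitor of PI3K, passed in basal duct (3.39-fold), intercalated duct (4.19-fold), granular tubule (6.91-fold) and endothelial cells (4.40-fold). Sesn1, a stress-induced inhibitor of mTORC1, passed in intercalated duct (3.50-fold), granular tubule (7.07-fold) and acinar cells (9.40-fold). Foxo3 and Pdk4 passed in acinar cells (4.37- and 3.97-fold) and Fbxo32 in myoepithelial cells (4.0-fold). In these classes the libraries also differ in depth and in the share of barcodes kept, and the part of either in the list's values was not tested.

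**Figure D5:**
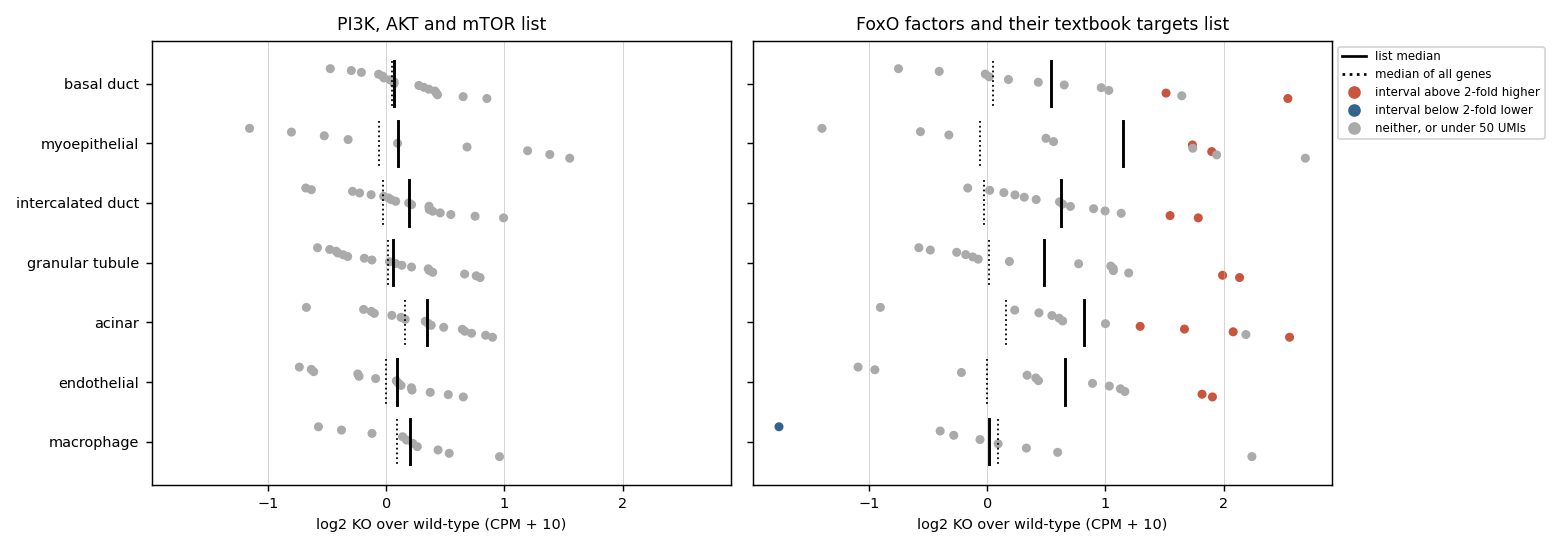
Log2 KO over wild-type ratio (10 CPM added to both sides) of each gene with at least 10 UMIs in the PI3K, AKT and mTOR list (left) and the FoxO list (right) by marker-gated class; solid bars are list medians, dotted bars the medians of all genes, and coloured points passed the size rule. No point of the left panel is coloured. The FoxO medians lie right of the all-gene median in 6 of 7 classes, with macrophages at 0.02 against 0.09. These 7 include myoepithelial cells, added after class sizes had been seen, and leave out red and lymphoid cells. The middle list values of the classes left out were 0.04 (red) and 0.05 (lymphoid).

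Other genes around the axis passed singly. Of all genes, 1.76% passed as lower in basal duct, 2.4% in myoepithelial, 4.64% in macrophage and 2.05% in intercalated duct cells. As higher, 4.95% passed in myoepithelial, 5.92% in acinar and 1.46% in granular tubule cells. Ccn4, a matricellular protein with an IGFBP-type domain, had 140 wild-type and 0 KO UMIs in basal duct cells and passed as lower. Ccn1, of the same family, was 2.61-fold higher in KO myoepithelial cells (152 and 419 UMIs) and 5.72-fold lower in macrophages (76 and 28). Stc1, an inhibitor of PAPP-A, was 4.41-fold lower in intercalated duct cells (87 and 15). Of the genes of its list with enough UMIs for the rule, Ccn4 was 1 of 4, Ccn1 1 of 1 in both classes and Stc1 1 of 4. Ptpn1, a phosphatase that acts on insulin and IGF receptors, was 5.11-fold higher in acinar and 3.72-fold higher in granular tubule cells. Socs2, a brake on growth hormone signalling, was 3.21-fold higher in acinar cells, and Klk1, a kallikrein, 2.29-fold lower in myoepithelial cells. Of such genes, Ptpn1 was 1 of 5 in granular tubule cells, Ptpn1 and Socs2 2 of 2 in acinar cells and Klk1 1 of 2. Klk1 is also the tubule product named above for carried-over RNA. It stood at 3929 (wild-type) and 3430 CPM (KO) in lymphoid cells, and at 11605 and 5820 in macrophages. It was higher in KO red (10576 and 12452) and endothelial cells (2889 and 5822). The part of carried-over RNA in the myoepithelial Klk1 difference was not tested.

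Genes with the most similar profile over 20 class-and-library totals were looked up among 7389 genes. For Igfbp2 these were Sostdc1 (Pearson r = 0.95), Pcp4 (0.92) and Cnn1 (0.92), for Igfbp3 Cxcl12 (0.98), Ramp2 (0.96) and Cd34 (0.94), and for Igfbp7 Fabp4 (0.94) and Igfbp3 and Eng (0.92 each). Igfbp4 was most like Col4a2, Col4a1 and Mgp (0.93 each), Igfbp6 like Apod (0.96), Dpep1 and Gpx3 (0.95 each), and Igf1r like Mgst1 (0.92), Rere and Thbs1 (0.89 each). Igfbp5 had the loosest partners, Smarcb1 (0.87), Bod1l (0.85) and Ube2v2 (0.83). Igfbp2 and Igfbp5, the neighbours on chromosome 1, correlated at 0.59. Cnn1, Ramp2 and Eng were among the markers that set the classes, so their likeness to genes high in those classes is partly built in. The totals of 1 library share depth and carried-over RNA, and the correlations are descriptions.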

How the data were processed

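Single-cell RNA of whole dissociated submandibular gland was counted in 2 libraries. The tables the authors deposited hold whole-number UMI counts for every gene in every barcode. The tools listed in the submitters' processing notes are bcl2fastq 2.19.1, Cell Ranger 2.1.0 and Seurat 3.1.2, with the build mm10 and no roles, and the sources used here do not give how barcodes were picked for deposit. Of 27998 Ensembl genes, 27645 were matched to a symbol in GENCODE M21.

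Kept barcodes showed 200 or more genes and a mitochondrial share below 20%. Marker UMIs per 10000 were set against the library median (1 added to both), and a cell joined its best class at a log2 score of 2, a margin of 0.5 and 2 distinct markers. Cells that scored alike for several classes stayed ungated (230 wild-type and 595 KO cells with all other ungated ones); no doublet caller was run. Each class was summed within its library, and CPM is relative to that class's total. Ratios have exact conditional and shares exact Clopper-Pearson 95% intervals, which cover counting error only; the floor is 3 counts per class and library. Log2 ratios had 10 CPM added. With 1 library per genotype no test was possible. Tested on simulated basal duct counts of 3414 genes, the size rule recovered 81.4% of 188 simulated 5-fold changes and called 0 unchanged genes. An unchanged gene can hardly pass a 2-fold limit by counting error, so that 0 is no rate of false calls. Differences between libraries in carried-over RNA or gating are not gauged by it. All genes of a class went through the same rule, which gives the background shares.

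The 8 genes and the lists were chosen with earlier results of these data known. Other named genes were list genes that passed the size rule. A z-score gate (3 settings) was tried first and replaced, and 5 settings of the present gate were viewed, after class sizes and values had been seen; the 30-cell classes, gene pairs and motifs were also chosen then. Python 3.11.15, numpy 2.4.6, scipy 1.17.1, pandas 2.3.3, scanpy 1.11.5, igraph 0.11.9 and matplotlib 3.10.9 were used, with Leiden clusters (resolution 1, 15 neighbours, 30 components, 2000 variable genes, without the 8 genes).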

Additional observations from a re-analysis of the deposited data

How the results depend on the processing

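The count of lower pairs (5) was 4 to 7 with TMM scaling, totals without mitochondrial, ribosomal, haemoglobin and secretory genes, no or stricter barcode filters, joint or separate clusters, 1 more marker, no deepest cells, a minimum of 20 UMIs, and, chosen after seeing the data, classes of 30 cells, a z-score gate and a gate margin of 1. It was 0 after thinning to 1000 UMIs, where fewer UMIs are left to reach 50, and 3 among cells without stromal or endothelial marker UMIs. The count of higher pairs (1) was 0 after thinning, without the deepest 5% of cells, with a gate margin of 1 and among cells without stromal markers, and 2 with at least 20 UMIs; it was 1 otherwise. Of the pairs that passed, Igfbp7 in red cells reversed with separate clusters (log2 ratio 2.85 for 1 and 16 UMIs; the cause was not tested).

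With TMM scaling the median log2 ratio of all genes with at least 50 UMIs moved from 0.05 to -0.15 in basal duct, 0.24 to -0.09 in acinar, 0.08 to 0.27 in endothelial and 0.11 to 0.27 in macrophage cells, and genes that passed as higher and lower went from 57 and 59 to 30 and 89, 186 and 30 to 86 and 92, 67 and 41 to 105 and 32, and 101 and 65 to 138 and 50. No paired analysis was possible because each genotype has 1 library, and for the same reason no replicate could be left out.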
